A study of Homo sapiens with 16 samples.

Results

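Of the 91430 HOXB13 peaks called in LNCaP prostate cancer cells that carried the control shRNA vector, 1353 were called again after HOXB13 was knocked down, and these 1353 retained sites are described here. A control peak counted as retained when it overlapped a peak of the HOXB13 shRNA library by at least 1 bp, and each retained site met a knockdown peak of its own (1353 distinct knockdown peaks). The retained sites made up 1.48% of the control list (Wilson 95% CI 1.40 to 1.56), or 0.818% when peak centres had to lie within 100 bp. The median distance between the control and knockdown peak centres was 81 bp. How many overlaps of 1 bp or more coincidence alone would give was not estimated, so some retained sites may be such overlaps. They were split by how many of the 12 peak lists of the series had a peak at the site: 394 retained sites were in 9 or more lists and the rest were in fewer. Both the choice and the split rest on the peak calls themselves, so the knockdown against control values and the number of lists are given as a description only.

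HOXB13, a homeobox protein, is a DNA-binding transcription factor of prostate epithelium that is present in androgen-sensitive and androgen-independent prostate cancer cells. HDAC3 and HDAC1 are histone deacetylases that work within corepressor complexes, HDAC3 with NCOR and SMRT. ATAC-seq marks open chromatin, and acetylation of histone H3 at lysine 27 (H3K27ac) marks active promoters and enhancers. A short hairpin RNA lowers a protein without removing its gene, so some of the protein can remain.

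LNCaP is an androgen-sensitive and PC-3 an androgen-independent prostate cancer cell line. LNCaP cells were infected for 7 days with the control shRNA vector pGIPZ (control), with the HOXB13 shRNA shHOXB13 (knockdown), or with shHOXB13 together with a lentivirus for wild-type HOXB13 (WT) or for the G84E variant, a coding change of HOXB13 (G84E). All WT and G84E cells therefore carried the knockdown shRNA too. HOXB13 was mapped in all 4 LNCaP groups, HDAC3 and ATAC-seq in control and knockdown, and HDAC1 in the control. In PC-3, HOXB13 was mapped in pGIPZ cells and H3K27ac in pGIPZ and shHOXB13 cells. Each group held 1 library, so every difference lacks a replicate check, no test between groups was possible, and the intervals cover only counting error or the spread among sites. The LNCaP H3K27ac libraries were not analysed here. The control HOXB13 library held 34.4 M tags (M, mega) and the knockdown library 47.2 M, so the library with fewer peaks (22864) was the deeper one.

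The retained sites spread over the whole range of list counts. Of the 10 lists other than control and knockdown HOXB13, none had a peak at 78 retained sites and all 10 had one at 44. At least 7 of the other 10 lists met 394 of the 1353 retained sites (29.1%, 95% CI 26.8 to 31.6), against 2931 of the 90077 sites that were not retained (3.25%, 95% CI 3.14 to 3.37) and 3.64% of all control sites. With centres within 100 bp (500 bp for H3K27ac), 11.5% of retained sites were in 9 or more lists. Read the other way, 11.8% (95% CI 10.8 to 13.0) of control sites with 7 or more of the other lists were retained and 1.09% (1.02 to 1.16) of those with fewer. The retained share was 0.493% at sites met by no other list, 1.30% with 3 other lists, 5.79% with 6 and 19.0% with all 10. The share that coincidental overlap would give was not estimated, which matters most for the lowest of these values. Just inside the split, the 141 retained sites in exactly 9 lists had a median of 11.3 normalised tags in the control and 7.42 after knockdown. Just outside it, the 145 sites in exactly 8 lists had medians of 11.9 and 6.99.

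**Figure D1:**
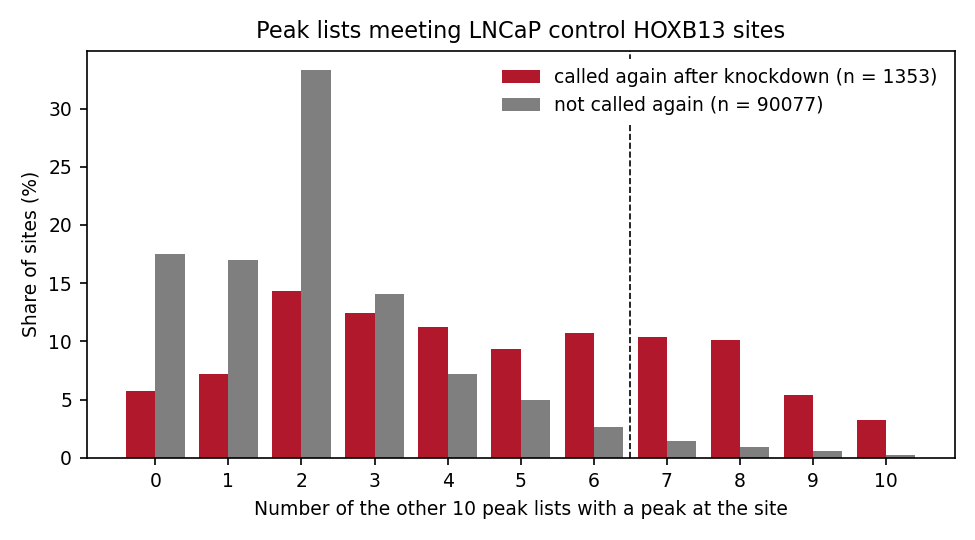
Share of sites (%, vertical axis) by the number of the other 10 peak lists with a peak at the site (horizontal axis), for the 1353 retained sites (red) and the 90077 sites not called again (grey); the dashed line is the split between fewer than 7 and 7 or more. The commonest count was 2 other lists in both sets, holding 14.3% of retained and 33.3% of not retained sites, and the retained sites lie further to the right.

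Signal is given as the normalised tag count, the tags in a peak per 10000000 tags of its library. The median control tag count was 9.60 at retained sites and 7.28 at sites not retained, and the middle 50% of retained sites ran from 6.98 to 17.2 tags. Retained sites in 9 or more lists were the stronger class, with a median of 12.9 tags against 8.73 for those in fewer lists. Of 107 control sites with over 100 tags, 82 were retained, 56 of them in 9 or more lists, and 25 were not. Among the strongest 50 control peaks 43 were retained, among the strongest 500 it was 127, and among the strongest 5000 it was 285. Of the knockdown list, 47 of the strongest 50 and 335 of the strongest 500 peaks lay at control HOXB13 sites of any strength. Among its strongest 5000 peaks it was 792 (15.8%), and most of the 22864 knockdown peaks met no control site.

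**Figure D2:**
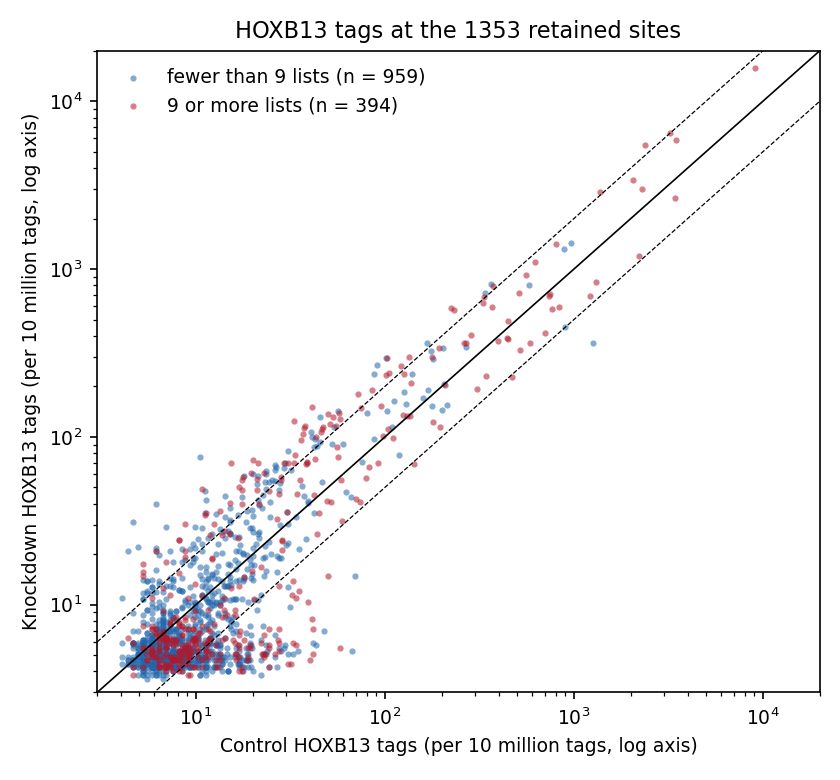
Normalised HOXB13 tag count in the control (horizontal) and after knockdown (vertical) at each of the 1353 retained sites, both on log axes, with sites in 9 or more lists in red and in fewer lists in blue; the solid line marks equal tags and the dashed lines 2-fold changes. Most sites form a cloud near 10 control tags with knockdown values close to 5, and a thin tail follows the line of equal tags up to 9132.2 control tags.

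After knockdown the median tag count at retained sites was 6.14. The median log2 ratio of knockdown to control was −0.33 in both classes, with a 95% interval from the order of the values of −0.43 to −0.25 for 9 or more lists and −0.39 to −0.28 for fewer. Per base pair of peak width it was −0.15 in both classes, because knockdown peaks were called 256 bp wide and control peaks 290 bp wide. Scaling to the tags outside peaks moved this ratio by −0.11, to −0.44. With close centres only 86 sites were in 9 or more lists, and their median was 0.65, with 0 inside its interval (−0.09 to 0.94). A median near 0 hid opposite movements: 239 of the 1353 retained sites (17.7%) were at least 2-fold lower after knockdown and 147 (10.9%) at least 2-fold higher. Since only sites called in both libraries can be retained, these shares are also those of all control sites measured in both. The lowest value in the knockdown list was 3.18 tags, which bounds the fall that a retained site can show.

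The retained sites were grouped by the size of this change. In the first, 52 sites were at least 4-fold lower after knockdown, with a median of 26.2 tags in the control (quartiles 22.3 and 32.6) and 5.09 after knockdown (4.45 and 5.56). In the second, 187 sites were between 2-fold and 4-fold lower (median 13.1 and then 4.87 tags). In the largest, 967 sites stayed within 2-fold (7.86 and 6.14 tags). In the last, 147 sites were at least 2-fold higher (17.8 and then 54.0 tags). Sites in 9 or more lists made up 24 of the 52, 52 of the 187, 254 of the 967 and 64 of the 147.

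The knockdown and control values define these groups, while the WT and G84E libraries were used neither for them nor to choose the retained sites. Ratios of WT or G84E to the control still share the control tag count with the grouping, so they are not independent of it. Where WT was called (n = 52, 158, 641 and 119), the median log2 ratio of WT to control was 0.08, −0.11, −0.13 and −0.40 in group order. By this ratio the second group and the one within 2-fold were alike. For G84E (n = 52, 150, 598 and 113) the medians were −0.25, −0.32, −0.21 and −0.50. All 52 sites of the first group were called with WT and with G84E, where the median tag count was 27.7 (quartiles 20.8 and 43.4) and 21.8 (15.8 and 28.6). Sites not retained were weighted over 10 groups of control tag count to the strength of this group. Of them, 97.9% were called with WT and 96.1% with G84E. In the second group, WT was called at 84.5% of the 187 sites and G84E at 80.2%. For sites not retained, weighted in the same way to this group, it was 90.4% and 86%. The 141 of its sites called in all 4 HOXB13 libraries had medians of 13.7 tags in the control, 5.09 after knockdown, 13.9 with WT and 12 with G84E. At the sites called in all 4 libraries, the medians with WT were thus close to the control in both groups. In the last group, the 105 sites called in all 4 libraries had medians of 26.2 tags in the control, 65.0 after knockdown, 19.1 with WT and 18.1 with G84E. There the WT and G84E medians were below the control, and those cells carried the same shRNA as the knockdown.

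**Figure D3:**
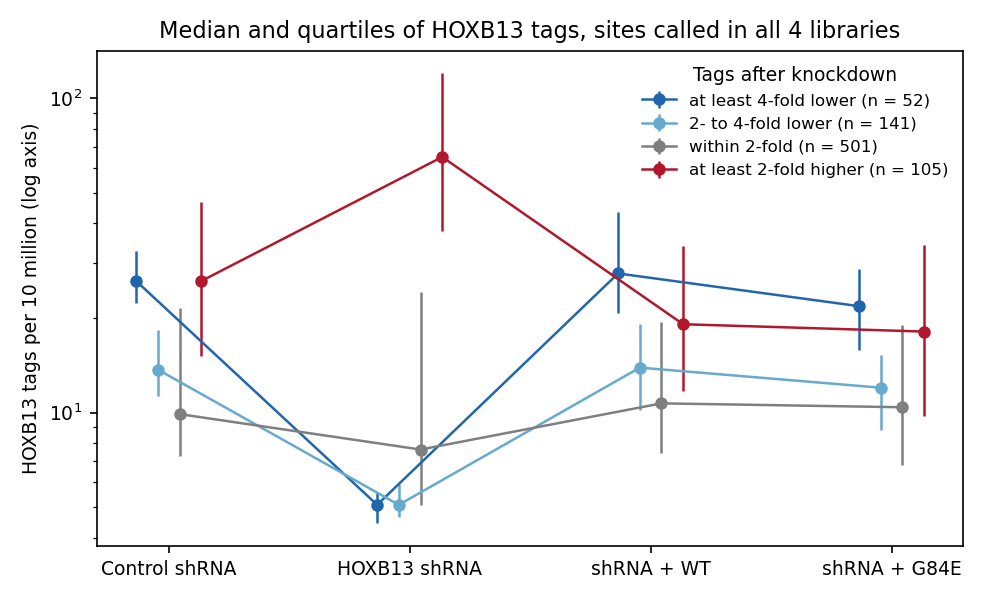
Normalised HOXB13 tag count (log axis) in the 4 LNCaP HOXB13 libraries at retained sites called in all 4, for groups defined by the change after knockdown; points are medians over sites and bars run from the first to the third quartile. The lower groups (blue) dip in the knockdown library to 5.09 tags and are back at 27.7 and 13.9 tags with WT, and the higher group (red) reaches 65.0 tags in the knockdown library alone.

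Regions were named by a rule on strength and change, leaving out chromosomes 8 and Y and sequence off the main chromosomes and taking 1 region per 10000 bp. The strongest retained site lay at chr1:121485073-121485363 (hg19), with 9132.2 tags in the control, 15711.1 after knockdown, 6661.7 with WT and 6220.9 with G84E. It had a peak in all 12 lists, with 16809.1 tags for HDAC3, 10519.8 for HDAC1 and 1519.4 for ATAC-seq in the control. Every assay thus piled up there, and the knockdown library was the highest of the HOXB13 libraries. The next named were chr10:42599628-42599918 (3469.7 tags in the control, 5895.3 after knockdown), chr2:33141350-33141640, chr19:27731940-27732230 (3211.9 and 6450.0) and chr7:61968948-61969238 (2296.1 and 3013.2). At chr2:33141350-33141640 the order of the libraries was another one, with 3437.7 tags in the control, 2647.3 after knockdown, 2387.5 with WT and 4423.1 with G84E. All of these were in 10 or 12 lists. Among sites in fewer lists, the strongest under the same rule were chr10:42400301-42400591 (968.8 and then 1435.5 tags) and chr7:61970258-61970548 (881.8 and 1325.8), again with the highest value after knockdown and 708.7 and 745.7 tags with WT. The site at chr21:11186484-11186774 had 336.7 tags in the control, 719.4 after knockdown, 289.8 with WT and 279.3 with G84E, and lay 0.23 kb from the peak-free stretch described below.

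Among retained sites in 9 or more lists, the steepest falls were at chr20:44044615-44044905, chr1:197752695-197752985 and chr14:95623670-95623960. At the first, the control gave 57.9 tags, the knockdown 5.51, WT 64.3 and G84E 59.1 (log2 ratio of knockdown to control −3.39, exact 95% CI from the recovered tags −4.04 to −2.80). ATAC-seq gave 5.53 tags there in the control and 5.89 after knockdown, and the PC-3 H3K27ac region over it held 570.7 and 740.2 tags. At the second, the values were 40.2, 4.66, 57.4 and 27.2 tags in the same order, so that G84E lay below both the control and WT. The third behaved otherwise: 41.6 tags in the control and 5.09 after knockdown were followed by 12.4 with WT and 8.15 with G84E, neither of which was near the control. A further site of this class, chr12:54718596-54718886, had a peak in all 12 lists, with 31.7 tags in the control, 4.45 after knockdown, 53.9 with WT and 29 with G84E.

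Among retained sites in fewer lists, chrX:88462180-88462470 had the steepest fall, from 66.9 to 5.30 tags, with 104.3 tags with WT and 100.7 with G84E. It was in 5 lists, the 4 LNCaP HOXB13 lists and PC-3 HOXB13 (30.4 tags), and had no HDAC1, HDAC3, ATAC or H3K27ac peak. The site at chr9:14702263-14702553 had the same 5 lists and the same pattern, with 32.6, 5.09, 71.5 and 68.1 tags. At both sites the HOXB13 libraries alone had a peak. At chr10:45169049-45169339 (43.4, 5.72, 63.3 and 45.0 tags) and chr1:202349126-202349416 (41.6, 5.93, 44.0 and 28.5 tags), HDAC3 was called in both libraries as well. HDAC3 went from 25 to 11.4 tags at the former and from 36.6 to 13.3 tags at the latter.

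The steepest rise among all named sites was at chr11:11268117-11268407, a site in 8 lists, from 10.5 tags in the control to 75.6 after knockdown (log2 ratio 2.85, exact 95% CI 2.36 to 3.39), with 8.19 tags with WT and no G84E peak. Next to it in size were chr7:157253920-157254210 and chrX:77359649-77359939. At chr7:157253920-157254210 the control gave 15.4 tags, the knockdown 70.3, WT 5.96 and G84E 5.66, while HDAC3 went from 37.6 to 80.6 tags. At chrX:77359649-77359939 the values were 10.8, 48.7, 5.21 and 5.66 tags, and HDAC3 went from 38.5 to 73.0 tags. At these 3 sites the knockdown HOXB13 library was the high one, and HDAC1 had a peak at each (34.4, 14.3 and 20.8 tags). HDAC3 did not go up at every rise: at chr10:39128720-39129010, where HOXB13 went from 11.1 to 47.5 tags, it went from 72.8 to 50.2. At chrX:155260057-155260347 (33.2 and then 125.2 HOXB13 tags), 0.256 kb from the outermost peak of its chromosome, HDAC3 went from 665 to 520 tags. Lower with WT than in the control were also chr5:178012526-178012816 (9.89, 21.8 and 4.22 tags in control, knockdown and WT) and chr10:42815241-42815531 (23.3, 54.2 and 12.2 tags), both with an HDAC1 peak (78.8 and 52.3 tags). At the former HDAC3 went from 38 to 28.5 tags, and the latter had no HDAC3 peak.

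Re-expression was also compared with sites that were not retained. WT peaks met 970 of the 1353 retained sites (71.7%, 95% CI 69.2 to 74.0), and 67.4% of all control sites. G84E peaks met 913 (67.5%, 64.9 to 69.9), and 63.2% of all control sites. The difference from sites not retained was 4.34 percentage points for WT (Newcombe 95% CI 1.86 to 6.70) and 4.30 for G84E (1.74 to 6.76). Standardised to the retained sites' control strength over 10 equal groups of control tag count, both turned round, to −5.05 and −5.34 points. These standardised values have no interval. Strength was not equal within the strongest group, whose median control tag count was 28.2 at retained and 20.4 at other sites. The strength groups also varied: in the fifth, G84E met 57% of retained and 56% of other sites, and in the strongest 93% and 96.1%. The standardised differences of the other 8 lists were above 0.

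Where a peak was called, the tags with WT and G84E lay below the control at retained sites. The median log2 ratio of WT to control was −0.27 (95% CI −0.33 to −0.20, n = 342) in 9 or more lists and −0.11 (−0.16 to −0.06, n = 628) in fewer, against 0.17 (0.17 to 0.18, n = 60669) at all sites not retained and −0.01 (−0.04 to 0.01, n = 2609) at those with 7 or more other lists. For G84E to control the medians were −0.40 (−0.44 to −0.33), −0.20 (−0.26 to −0.17), 0.02 (0.01 to 0.03) and −0.29 (−0.31 to −0.27). These ratios share the control library, and scaled to tags outside peaks the WT median in fewer lists was 0.03 (−0.03 to 0.07). In the strongest of the 10 groups of control sites, the retained sites had a WT to control median of −0.36 and the others 0.07. Strength still differed within that group, with a median of 28.2 control tags at its 388 retained and 20.4 at its 8755 other sites. In that group the G84E to control median of sites in 9 or more lists was −0.46, against −0.48 at sites not retained with 7 or more other lists. The gap seen for G84E over all strengths was thus absent in that class. It was present over all retained sites of the group (−0.42 against −0.27) and in fewer lists (−0.36 against −0.25). In the weakest group the WT to control medians were 0.35 at retained and 0.47 at other sites, and those of G84E 0.24 and 0.42. These medians hold only called sites: WT met 38.4% of the 73 retained and 44% of the 9070 others. Of retained sites with a WT peak, 32 (3.30%) were at least 2-fold lower than the control and 36 (3.71%) at least 2-fold higher, against 1.48% and 10.3% of all control sites. For G84E it was 39 (4.27%) and 22 (2.41%), against 3.49% and 6.44%.

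Over all retained sites the pair of re-expressed proteins differed little. At the 52 sites at least 4-fold lower after knockdown, the medians were 27.7 tags with WT and 21.8 with G84E. At the 799 sites with both peaks, the median log2 ratio of G84E to WT was −0.09 (95% CI −0.13 to −0.06), against −0.21 (−0.22 to −0.21) at 48804 sites not retained. At least 2-fold lower with G84E were 20 of the 799 retained sites (2.50%) and 4.02% of the others. The interval of the retained sites leaves out the median of the others, though each library stood alone.

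HDAC1 gave the largest ratio between retained and other sites. An HDAC1 peak lay at 444 of the 1353 retained sites (32.8%, 95% CI 30.4 to 35.4), at 1.48% of sites not retained and at 1.94% of all control sites, a difference of 31.3 points (28.9 to 33.9). Standardised over the groups of control strength, it was 31.2 points. Membership in many lists was not needed for it: 203 retained sites in fewer than 9 lists (21.2% of that class) had an HDAC1 peak, against 0.575% of other sites with fewer than 7 other lists. Of the 444 retained sites with an HDAC1 peak, 233 (52.5%, 95% CI 47.8 to 57.1) had no ATAC peak call in either library, against 20% (17.9 to 22.2) of the 1331 sites not retained that had an HDAC1 peak. In 9 or more lists it was 31.5% of 241 sites, and in fewer 77.3% of 203, but these classes were built partly from the ATAC calls.

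HDAC3 peaks met 616 retained sites in the control (45.5%, 95% CI 42.9 to 48.2; 13.4% of all control sites) and 625 after knockdown (46.2%, 43.6 to 48.9; 9.40% of all). Against sites not retained the differences were 32.6 points (30.0 to 35.3) and 37.3 points (34.7 to 40.0), or 26.4 and 33.8 when standardised. ATAC peaks met 430 retained sites in the control (31.8%, 29.4 to 34.3; 10.3% of all) and 394 after knockdown (29.1%, 26.8 to 31.6; 8.93% of all). The ATAC difference was 21.8 points (19.4 to 24.4) in the control, and 16.6 when standardised. At 865 retained sites neither library had an ATAC peak.

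The PC-3 lists come from another cell line. PC-3 HOXB13 peaks met 581 retained sites (42.9%, 95% CI 40.3 to 45.6), against 21.1% of all control sites. PC-3 H3K27ac regions met 662 in the control (48.9%, 46.3 to 51.6; 14% of all) and 630 after knockdown (46.6%, 43.9 to 49.2; 14.9% of all). In the class with 9 or more lists the H3K27ac shares were 94.2% and 93.1%, but that class was built from these calls.

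**Figure D4:**
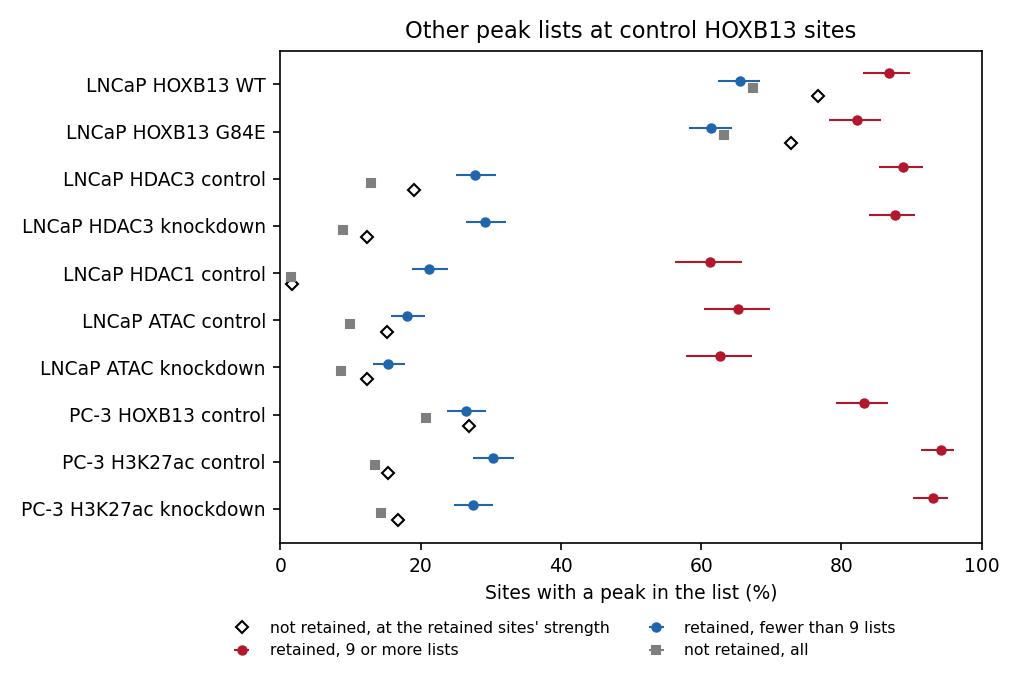
Share of sites (%, horizontal axis) with a peak in each of the other 10 lists: retained sites in 9 or more lists (red), retained sites in fewer lists (blue), sites not retained (grey squares) and sites not retained weighted to the retained sites' control strength (open diamonds); bars are Wilson 95% intervals. HDAC1 shows the widest relative gap, with 21.2% and 61.2% in the retained classes and 1.48% at sites not retained, while for the WT and G84E lists the weighted sites lie above the retained sites in fewer lists.

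HDAC3 peaks at retained sites were also likelier to be called in both libraries of their pair, and for ATAC the gap was smaller within the classes. Of control HDAC3 peaks at retained sites, 80.5% of 616 were called again in the knockdown, against 43.9% at sites not retained. In fewer than 9 lists the shares were 66.9% at retained and 34.8% at other sites. For ATAC it was 78.1% (336 of 430) and 64.1% over all sites. In 9 or more lists ATAC was called again at 87.5%, against 85.2% at sites not retained with 7 or more other lists. In fewer lists the shares were 64.2% and 56%. At the retained sites with both HDAC3 peaks the median log2 ratio of knockdown to control was −0.30 (95% CI −0.35 to −0.25), against −0.50 (−0.52 to −0.49) at 5111 sites not retained. At least 2-fold lower were 52 of them (10.5%), against 18.4% of all control sites with both peaks, and at least 2-fold higher were 18 (3.63%), against 0.499%. The width of HDAC3 peaks was 471 bp in the control list but 365 bp in the other, and per base pair the medians were 0.07 and −0.14, so the sign at retained sites depends on the width.

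HDAC3 tags were ordered like the HOXB13 groups. The HDAC3 median log2 ratio was −0.63 (95% CI −0.84 to −0.37, n = 23) where HOXB13 was at least 4-fold lower and −0.55 (−0.70 to −0.34, n = 56) where it was 2-fold to 4-fold lower. It was −0.30 (−0.37 to −0.25, n = 325) where HOXB13 stayed within 2-fold and −0.08 (−0.22 to 0.01, n = 92) where HOXB13 was at least 2-fold higher. The intervals of the first and last group do not meet, and neighbouring groups at the lower end overlap. ATAC tags showed no such order, with medians of 0.11, 0.06, 0.07 and 0.05. ATAC peaks were 96 bp wide in the control and 111 bp after knockdown, and per base pair the median over retained sites was −0.13 in place of 0.07. Over all retained sites with both ATAC peaks, 3 of 336 (0.893%) were at least 2-fold lower and 6 (1.79%) at least 2-fold higher, against 0.394% and 3.01% of all control sites.

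The retained sites showed 321 different combinations of the other 10 lists. The commonest was WT and G84E with nothing else, at 134 retained sites (9.90%) and 28.6% of sites not retained. Their median was 9.02 tags in the control and 5.09 after knockdown. Every list except ATAC-seq was present at 56 retained sites (4.14%) and only 17 sites not retained (0.0189%). Those 56 sites had medians of 52.7 tags in the control and 115.3 after knockdown. Where all 10 lists were present, ATAC-seq included, the 44 retained sites had medians of 17.35 and 6.675 tags. Of these sets of sites, the one without ATAC peaks was thus the stronger in the control and higher still after knockdown. WT, G84E and HDAC1 alone made up 20 retained sites and 15 others, with medians of 13.95 and 18.15 tags at the retained ones.

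The same contrast held over the groups by change. Among the 147 sites at least 2-fold higher, 92 (62.6%, 95% CI 54.5 to 70.0) had an HDAC1 peak and 38 (25.9%, 19.5 to 33.5) a control ATAC peak. Among the 52 sites at least 4-fold lower, 11 (21.2%, 12.2 to 34.0) had an HDAC1 peak and 30 (57.7%, 44.2 to 70.1) an ATAC peak. Sites not retained, weighted over the groups of control tag count to these sites, had HDAC1 at 1.63% and 1.74% and ATAC at 20.9% and 30.6%. The peaks also sat differently. The median distance between the centres of the control and knockdown peaks was 9 bp where tags were higher, and 85.7% of those pairs lay within 100 bp. It was 114 bp where tags were at least 4-fold lower, with 44.2% within 100 bp, and 88 bp within 2-fold.

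Position in the genome was a property the choice did not use. In hg19 the centromeres and some heterochromatin are gaps without sequence, and the longest stretch without a peak of any of the 12 lists was taken as a mark of such a gap on the 20 chromosomes where it reached 2 Mb. Of 1174 retained sites on these chromosomes, 221 (18.8%, 95% CI 16.7 to 21.2) lay within 1 Mb of that stretch, against 1.29% (1.21 to 1.37) of sites not retained and 1.54% of all control sites. The share was 18.0% (14.3 to 22.5) in 9 or more lists and 19.1% (16.6 to 21.9) in fewer. Within 100 kb of the outermost peak of a chromosome lay 26 of 1289 retained sites (2.02%, 1.38 to 2.94), against 0.185% of all control sites. Off chromosomes 1 to 22, X and Y, on unplaced or mitochondrial sequence, lay 64 retained sites (4.73%, 3.72 to 6), against 0.327% of all, and 2 of these were mitochondrial. Conversely, 17.5% (15.5 to 19.7) of the 1261 control sites near a stretch were retained, 21.4% (17.1 to 26.4) of the 299 off the main chromosomes and 1.19% (1.12 to 1.26) of the 89870 elsewhere.

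Position went with the direction of change. Near a stretch the median log2 ratio of knockdown to control was 0.21, with 42 of 221 sites at least 2-fold higher and 6 at least 2-fold lower. Off the main chromosomes it was 0.62, with 22 of 64 higher and 3 lower. At the 1068 retained sites elsewhere it was −0.46, with 83 higher and 230 lower. Of the sites at least 2-fold higher on chromosomes with a stretch, 42 of 117 (35.9%, 95% CI 27.8 to 44.9) were near it, against 1 of 45 (2.22%, 0.393 to 11.6) of those at least 4-fold lower. These intervals count neighbouring sites separately, and chromosome 10 held 33 of the 221 sites near a stretch. Chained at 100 kb, runs there had 8 of 10, 4 of 6, 3 of 7 and 1 of 6 sites at least 2-fold higher. Runs beside the stretches of chromosomes 12 and 7 had 0 of 12 and 0 of 8, so the shift was uneven between chromosomes. The part that repeated sequence plays in these values was not tested.

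**Figure D5:**
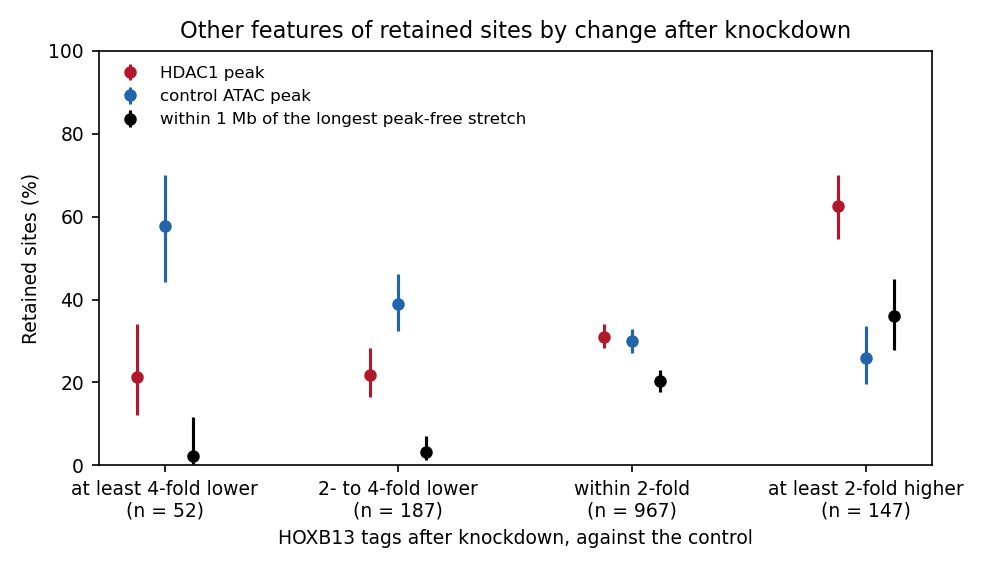
Share of retained sites (%, vertical axis) with an HDAC1 peak (red), with a control ATAC peak (blue) and within 1 Mb of the longest peak-free stretch (black), by the change of HOXB13 tags after knockdown; bars are Wilson 95% intervals, and the black points use only chromosomes with such a stretch. From at least 4-fold lower to at least 2-fold higher, HDAC1 goes from 21.2% to 62.6%, nearness to the stretch from 2.22% to 35.9% and ATAC from 57.7% to 25.9%.

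Away from these places the HDAC1, HDAC3 and ATAC differences were still present, while those of WT and G84E were 0.938 and −0.00241 points. Only the longest stretch of a chromosome was used, so the sites elsewhere still held dense groups of retained sites. Examples are chrY:13652014-13868557 (17 of 21 control sites retained) and chr2:89830350-89879295 (7 of 8). At the 1068 retained sites elsewhere, HDAC1 met 30.1% and HDAC3 46.4%, against 1.47% and 13% of the sites not retained there. ATAC met 36.4% of them, against 10% of the others, and the WT and G84E lists met 68.4% and 63.2%, against 67.4% and 63.2%. Near a stretch, ATAC met 12.7% of retained sites and HDAC1 45.2%. Sites in 9 or more lists made up 28.4% of retained sites elsewhere, 27.1% near a stretch and 48.4% off the main chromosomes.

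Part of the retained sites lay in dense runs. Chained at 100 kb, they formed 982 runs, of which 850 held 1 site, while 33 runs of 5 or more sites held 262 sites (19.4%). The fullest, on the unplaced sequence Un_gl000225, had 20 retained of 32 control sites, 11 of them at least 2-fold higher and 0 lower. A run at chrY:13652014-13868557 had 17 of 21, with 10 higher and 0 lower. One at chr10:39079271-39152620 had 10 of 12, with 8 higher and 0 lower (medians 25.4 tags and then 57.1), next to the peak-free stretch of chromosome 10. A run beside the stretch of chromosome 12 showed no such shift: at chr12:37990047-38248771, 12 of 16 control sites were retained, with a median of 14 tags in both libraries. Within 10000 bp of another retained site lay 21.6% of sites in 9 or more lists and 17.7% of those in fewer, against 51.3% of the far more numerous sites not retained.

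Chromosomes differed in the retained share. It was 11.6% (95% CI 8.56 to 15.6) on chromosome Y, 3.83% (2.92 to 5.01) on chromosome 19 and 3.48% (2.42 to 4.98) on chromosome 22, and lowest on chromosome 13 with 0.328% (0.159 to 0.675), 7 of 2137 sites. Away from the stretches the shares on chromosomes 19 and 10 were 2.82% and 0.85%, against 3.83% and 1.58% with them. Chromosome 22 has no such stretch, so its share is unchanged.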

How the data were processed

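The submitters' processing notes name HOMER 4.2, Bowtie2 and hg19. Each of the 12 lists was called on its own, per the file headers, with findPeaks at an FDR of 0.001 and without an input library. Narrow lists used the factor style, which asks for 4 times the tags of the surrounding 10000 bp at a Poisson p of 0.0001, and both H3K27ac lists of PC-3 the histone style. The deposited signal is the normalized tag count per 10000000 tags. The deposited findPeaks score was used to pick the better-scoring peaks of a list. The deposited ratio to the local background (fold) and the deposited fraction that measures how centred the tags are were read to describe peaks and enter no comparison.

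Lists were compared by overlap of 1 bp or more, and the highest tag count was taken where several peaks met a site. Shares have Wilson 95% intervals, differences Newcombe intervals and medians intervals from order statistics. Region ratios have exact intervals from whole tags recovered from the header totals, within 0.1 tags for 100% of values under 10. PCR duplicates and cultures are outside these intervals. Shares were standardised over 10 equal groups of control tag count, within which strength can still differ. The calculations used Python 3.11.15, numpy 2.4.6, pandas 2.3.3 and scipy 1.17.1, and were checked on simulated data. Members, lists and groups were chosen with earlier results of these data known. In each class the named regions, on chromosomes 1 to 22 and X other than 8, were the 5 strongest in the control, and the 3 with the largest rise, the largest fall, and the largest and smallest WT to knockdown ratio among those at or above 9.60 control tags, 1 per 10000 bp. The groups by change, the peak-free stretches, the runs and the scaling to tags outside peaks were added after the data were seen. An hg19 genome with its annotation was not used here, and genes, motifs and sequences at the sites were not analysed. Alternatives were other overlap rules, the better-scoring 50% of every list, other splits of the list count, main chromosomes only, neighbours counted once, tag density and strength.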

Additional observations from a re-analysis of the deposited data

How the results depend on the processing

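No paired analysis was possible because each group had 1 library. The cause of the changes below was not tested unless the alternative itself shows it. The main share of retained sites, 1.48%, was 0.818% with peak centres within 100 bp, 1.02% with overlap of 50% of the shorter peak, 1.66% for the better-scoring 50% of each list, 1.87% with neighbours within 10000 bp counted once and 1.19% without sites near a stretch or off the main chromosomes. The share in 9 or more lists, 29.1%, was 11.5%, 24.3% and 24% under the first 3 of these. It was 39.8% for 8 or more lists, 18.7% for 10 or more and 10.2% for 9 or more of the 10 narrow lists, as fewer lists or another count was asked for.

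Close centres changed most. With them, the WT difference of 4.34 points was 7.98, HDAC3 29.9, HDAC1 27.6 and ATAC 13.5 points. The WT to control median log2 ratio was then −0.36 in 9 or more lists and −0.25 in fewer, and the HDAC3 ratio −0.18 and −0.13. The knockdown to control ratio was 0.65 (−0.09 to 0.94) over the 86 sites then in 9 or more lists and −0.19 in fewer. Close centres kept 85.7% of the sites at least 2-fold higher after knockdown and 44.2% of those at least 4-fold lower. The shares within 10000 bp of another retained site were 36.0% and 23.3%, and near a stretch 34.3% and 27.6%.

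With overlap of 50% the ATAC difference was 18.3 points, the knockdown ratio −0.14 and −0.25, the WT ratio in fewer lists −0.18, the HDAC3 ratio in 9 or more lists −0.25, the neighbour shares 29.5% and 20.3% and the shares near a stretch 28.6% and 24%. In the better-scoring 50% the WT difference was −1.72 points, with 0 inside its interval (−4.99 to 1.30), and HDAC3 was 36.0 and ATAC 16.8 points. There the WT ratio was −0.34 and −0.25, the knockdown ratio −0.19 and the HDAC3 ratio −0.25 in 9 or more lists, the neighbour shares 32.4% and 27.4% and the shares near a stretch 32.0% and 30.4%.

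Standardised over the groups of control strength, the WT and G84E differences turned round, to −5.05 and −5.34 points, and HDAC3 was 26.4 and ATAC 16.6 points. With neighbours counted once WT was −0.542 (−3.20 to 1.98) and G84E −1.72 points (−4.48 to 0.941), with 0 inside both intervals. The WT ratio in fewer lists was then −0.05 and the knockdown ratio there −0.40. Without sites near a stretch or off the main chromosomes, WT was 0.938 (−1.93 to 3.67) and G84E −0.00241 points (−2.95 to 2.86), with 0 inside both intervals. HDAC1 was then 28.6, HDAC1 in fewer lists 17.1 and ATAC 26.4 points. The WT ratio was then −0.16 and −0.01, the knockdown ratio −0.59 and −0.46, the HDAC3 ratio −0.47 in 9 or more lists and the neighbour shares 9.57% and 9.93%. With 8 or more lists as the split, HDAC1 in fewer lists was 17.8 points.

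Per base pair the WT ratio was −0.19 and −0.02 and the knockdown ratio −0.15 in both classes. The HDAC3 ratio was 0.02 (−0.04 to 0.10) in 9 or more lists and turned round in fewer, to 0.12 (0.04 to 0.21). Scaled to tags outside peaks, an alternative added after seeing the data, the WT ratio was −0.14 in 9 or more lists. In fewer it was 0.03 (−0.03 to 0.07), and the knockdown ratio was −0.44 in both. Neighbours within 1000 bp were 2.54% and 2.29%, and within 100 kb 41.4% and 35.5%. Within 0.2 Mb of a stretch lay 13.2% and 12.1%. Of the results for named regions and further lists, 153 settings gave the same reading and the rest moved a value. Values whose main interval held 0 also changed sign: with close centres the WT and G84E differences in fewer lists were 4.59 and 6.07 points in place of −1.14 and −1.06, and with 10 or more lists as the split 0.259 and 0.16. The ATAC ratio per base pair was −0.14 and −0.12 in place of 0.06 and 0.07, and −0.01 in 9 or more lists in the better-scoring 50%. The lists hold no value for a site without a peak, so a fall below 3.18 tags after knockdown cannot be seen, and the HDAC1 library, with 14 M tags, was shallow.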
